A study of Homo sapiens with 4 samples.

Results

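FDXR encodes ferredoxin reductase, and it was examined here together with its ferredoxins and the core mitochondrial machinery that builds iron-sulfur clusters. The 9 genes, FDXR, FDX1, FDX1L, ISCU, NFS1, LYRM4, ISCA1, ISCA2 and GLRX5, were chosen by symbol, for their role, from the 23228 genes in the count tables, and all 9 had enough reads to be tested. The cells were SKOV3-ALDH+ OCSCs, which are cells of the established human ovarian cancer line SKOV3 that were sorted for aldehyde dehydrogenase activity with the ALDEFLUOR assay and grown as spheroids in serum-free medium with growth factors. The 2 groups of 2 samples were compared after 24 h, one given vehicle and the other given 5 µM LY500307, an agonist of estrogen receptor beta (ERβ), so that all 4 samples came from 1 cell line, sorted and cultured in the same way. The labels describe total RNA libraries, whereas the study's methods describe stranded mRNA libraries. Neither says whether the replicates were separate cultures. The p-values therefore rest on the spread between these samples, which may be technical.

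Iron-sulfur clusters are small inorganic cofactors that carry electrons or hold structure in proteins of respiration, metabolism and DNA repair. In mitochondria, FDXR takes electrons from NADPH and hands them to a ferredoxin, and the ferredoxin supplies them either to cluster assembly or to mitochondrial enzymes such as steroid-making cytochromes P450. Clusters are put together on the scaffold protein ISCU from sulfur released by the desulfurase NFS1, and carrier proteins then bring them to their clients. Ferredoxin reductase is also known to affect iron balance in the cell.

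The sequence before the FDXR start is shown because this gene was the member that changed, and because the study examined estrogen receptor binding there. The study mapped ERβ motif models, which placed FDXR among its potential ERβ targets, and reported ERβ enrichment at the FDXR promoter in published ChIP-seq profiles. The search below is for exact letters in short windows and repeats neither. In GRCh37 the FDXR gene, transcribed from the minus strand of chromosome 17, spans 72858619 to 72869156, and its canonical transcript has 1846 bases. The 213 bases directly upstream of that annotation were taken from the RefSeq promoter table (GRCh38.p14) and matched 1 place on chromosome 17 of GRCh37 exactly, chr17:72869157-72869369 on the minus strand. In the sequence below, capitals mark the GC box GGGCGG, the motif known for binding SP1-type factors.
FDXR: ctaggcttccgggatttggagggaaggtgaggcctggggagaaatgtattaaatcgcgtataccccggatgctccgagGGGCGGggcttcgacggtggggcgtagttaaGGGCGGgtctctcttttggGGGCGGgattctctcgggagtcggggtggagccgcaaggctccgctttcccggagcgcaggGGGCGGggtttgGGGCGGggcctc
It held 5 GC boxes, and the whole 250-base window before the RefSeq start held 6. The remaining 37 bases of that window lie inside the first exon of the GRCh37 annotation and are not shown. Neither the estrogen response element, which is GGTCA followed by TGACC after 3 bases of any kind, nor its half-site GGTCA, nor the AP-1 element TGANTCA was matched on either strand of the window.

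These matches describe the letters of the sequence and do not mark a bound site, and a motif without a match says only that its letters are not in this window. Of 35116 RefSeq promoter windows of the same length, 42.6% held a GC box, 32.6% the estrogen response half-site and 6.57% the AP-1 element, while 0.0399% held the full estrogen response element. The other RefSeq start of FDXR had none of these motifs in its window. Every other member had at least 1 GC box, with the most in LYRM4 (7) and ISCA2 (5). The estrogen response half-site was matched once each in FDX1, FDX1L and ISCU. GC boxes may overlap one another in this count, and elements that contain a half-site would be counted under both.

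The libraries differed in spread and in the share of reads outside genes. Reads counted on genes numbered 28841701 to 34943882 per sample. The vehicle samples were closer to each other than the LY500307 samples were, with a chi-square per degree of freedom over genes of 5.16 in vehicle against 42.5 in LY500307, where 1 is the level of counting noise. Among the 9853 genes with a level of at least 10 CPM, which are read counts scaled to library size, the median difference within a pair on the log2 scale was 0.0736 for vehicle and 0.183 for LY500307. Reads that fell outside genes made up 29.6% and 30.8% in vehicle and 28.4% and 25.5% in LY500307, so this share was lower in the treated samples, and its part in the results was not tested. Of the SKOV3 markers, EPCAM had 6213 to 8327 reads and ERBB2 1452 to 2060 reads, the latter at 48.7 to 59.4 CPM. KRT8 had 9 to 33 reads, MUC16 1 to 6 and PAX8 0. KRT18 had 668 to 1030 reads and ALDH1A1 134 to 185. The summed level of 5 ALDH genes was 79.0 to 85.4 CPM over the 4 samples, most of it from ALDH2 (61.7 to 69.1 CPM). Of 6 fibroblast genes, COL1A1 and COL1A2 had an edgeR p under 0.05, as did 11.6% of all genes tested. Their log2 fold changes were 0.28 and 0.44, whereas COL3A1 stood at 0.13, PDGFRB at 0.23, DCN at -0.20 and LUM at -0.10. The summed level of the 6 was 906 to 915 CPM in vehicle and 994 to 1169 CPM in LY500307. Most of it came from COL1A1, COL1A2 and COL3A1, and it was not tested as a source of any result. None of the 6 was at 0 reads, and COL3A1 (12513 to 16716 reads) and COL1A2 (7291 to 12767) had more reads than EPCAM in every sample. The leukocyte markers PTPRC and CD3E had at most 4 reads in any sample. The 5 leukocyte markers summed to 11.9 to 18.3 CPM, nearly all of it from CD68 (372 to 620 reads, 11.5 to 17.9 CPM). The 3 endothelial markers summed to at most 0.371 CPM. In bulk RNA, fewer cells of a type and less RNA per cell cannot be told apart.

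FDXR rose after LY500307 and was the only member to do so by the study's criteria, an unadjusted p under 0.05 and an absolute log2 fold change over 0.5. Its reads numbered 1497 and 1099 in the vehicle replicates 1 and 2, and 2277 and 2292 in the LY500307 replicates 1 and 2. Scaled by library size with TMM factors, its level was 49.9 and 38.7 CPM in vehicle and 65.6 and 70.9 CPM in LY500307. Both treated samples were above both vehicle samples. On the log2 scale, the gap from the higher vehicle sample to the lower treated sample was slightly wider than the gap inside the vehicle pair. The mean level was 44.3 ± 7.98 CPM (SD, n = 2) in vehicle and 68.3 ± 3.75 CPM (SD, n = 2) in LY500307. The log2 fold change was 0.62 with a standard error of 0.14 and a 95% interval of 0.30 to 0.95, which is 1.54-fold, and FDXR passed edgeR's quasi-likelihood test at an unadjusted p under 0.05.

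After Benjamini-Hochberg adjustment over the 14473 genes tested, the edgeR adjusted p of FDXR was 0.422, and by p it ranked 52. DESeq2 gave the same log2 fold change, 0.62, with an adjusted p of 0.0568, and over all alternatives the adjusted p ran from 6.68e-11, with LY500307 replicate 2 as the only treated sample and assumed to vary like the vehicle pair, to 0.986, without vehicle replicate 2. The call rested on vehicle replicate 2, without which the log2 fold change of FDXR was 0.45 with an unadjusted p just over 0.05, while without vehicle replicate 1 it was 0.82. An exact permutation test on 2 samples against 2 cannot give a p below 0.333 and was therefore not informative.

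**Figure D1:**
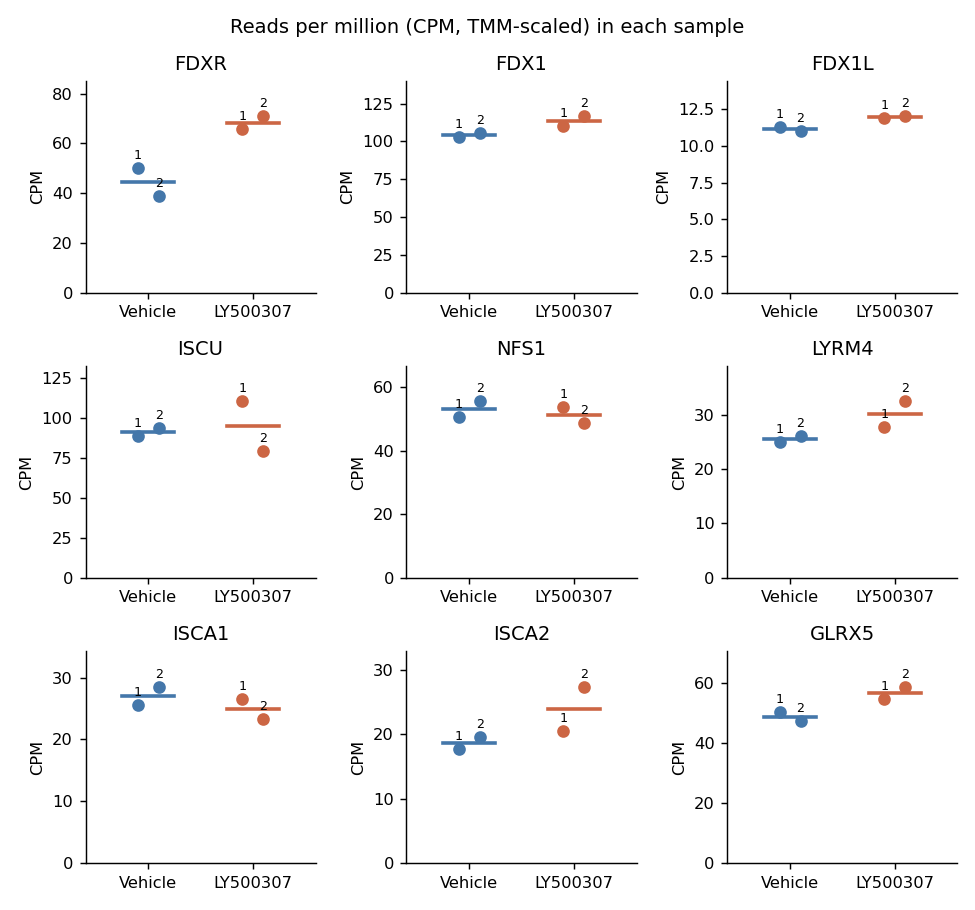
Level of each of the 9 genes in CPM (TMM-scaled, linear axis from 0) in each vehicle and LY500307 sample, with the replicate number beside each point and a bar at the group mean. FDXR stands at 38.7 and 49.9 CPM in vehicle and at 65.6 and 70.9 CPM in LY500307, whereas ISCU, NFS1 and ISCA1 overlap between the groups.

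FDXR varied more within the vehicle pair than within the LY500307 pair. Its vehicle samples differed by 0.37 on the log2 scale, and only 1.64% of the 9853 genes at 10 CPM or more differed by more within that pair. Its LY500307 samples differed by 0.11, a difference that 67.1% of those genes exceeded. The reverse held for ISCU, whose vehicle samples differed by 0.08 and whose LY500307 samples differed by 0.47, and for ISCA2, with 0.14 and 0.42. For ISCU, 11.1% of genes differed by more within the LY500307 pair, and for ISCA2, 14.6% did.

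**Figure D2:**
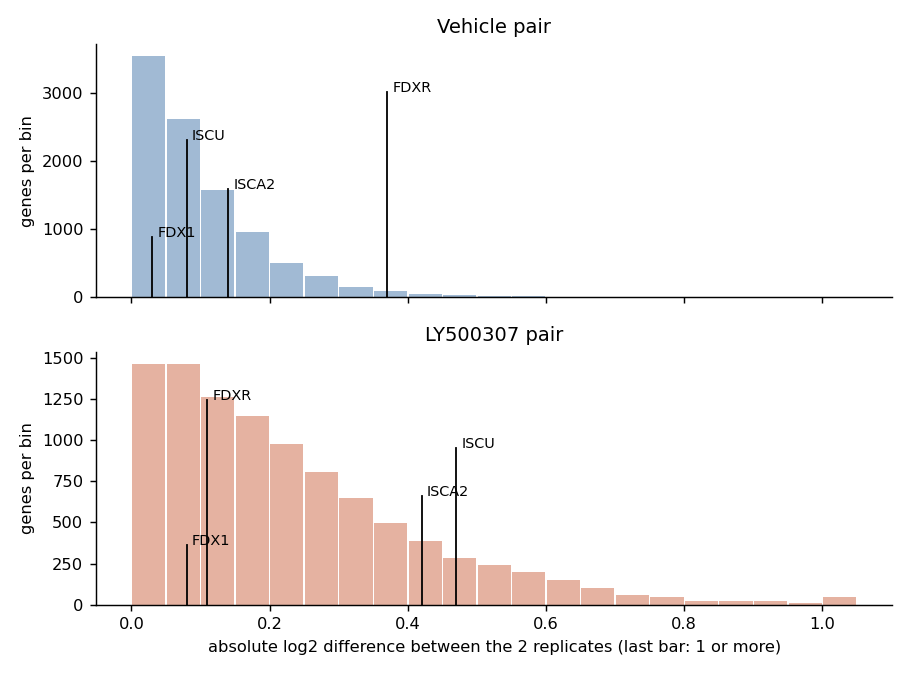
Histograms of the absolute log2 difference between the 2 replicates of each group (x axis) for the 9853 genes of at least 10 CPM (y axis, genes per bin), with lines at 4 of the genes whose heights carry no value. FDXR lies far out in the vehicle pair at 0.37 and low in the LY500307 pair at 0.11, while ISCU and ISCA2 lie far out in the LY500307 pair at 0.47 and 0.42.

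Of the 9 members, 1 met the criteria and it was higher, against 4.62% of all genes tested that met them in either direction, 2.76% that met them upward and 1.86% that met them downward. The same 1 member had p under 0.05, as did 11.6% of all genes tested. No gene, member or other, had an edgeR adjusted p under 0.05 (0% of 14473 tested), although 1678 had an unadjusted p under 0.05, and DESeq2 gave 16 genes with an adjusted p under 0.05. In 6 of the 9 members both LY500307 samples were above both vehicle samples, where 24.2% of all genes tested showed that order, and in 0 of the 9 were both below, an order that 3530 of the 14473 genes showed. The median log2 fold change was 0.12 over the 9 members and -0.00 over all genes tested. The summed level of the 9 was 422 and 426 CPM in vehicle and 481 and 470 CPM in LY500307. Across all genes, 400 met the criteria upward and 269 downward, so that 59.8% were higher. That share moved with the fit. It was 55.9% with a replicate block, 51.2% with a correction for GC content, 47.4% with both, and 69.7% with scaling by library totals. The GC content of the FDXR exons was 60.3%, and with the GC correction alone its log2 fold change was 0.51.

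**Figure D3:**
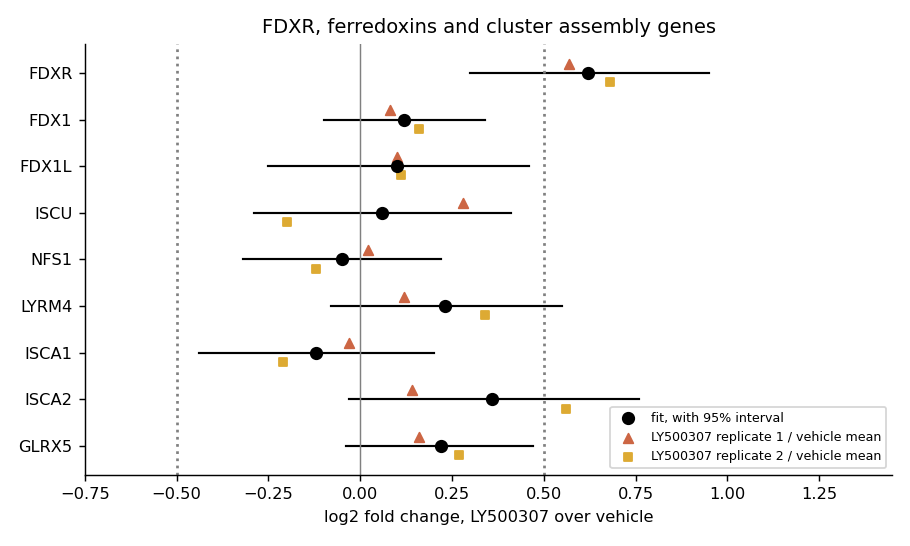
The log2 fold change of LY500307 over vehicle (x axis) for each gene, with the edgeR estimate and its 95% interval as a circle and line, and each LY500307 replicate over the vehicle mean as a triangle or square. Dotted lines mark 0.5 in either direction; the FDXR interval from 0.30 to 0.95 is the only one of the 9 that leaves out 0.

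The ferredoxins take the electrons that FDXR delivers. FDX1, the ferredoxin of steroid-making enzymes and of protein lipoylation, had 3090 and 3001 reads in vehicle and 3824 and 3770 in LY500307, or 103 and 106 against 110 and 117 CPM. The treated samples of FDX1 were both above the vehicle samples, but the log2 fold change of 0.12 (SE 0.10, 95% interval -0.10 to 0.34) did not meet the criteria (edgeR adjusted p = 0.593). FDX1L, listed as FDX2 in newer annotation and known as the ferredoxin of cluster assembly, had 338 and 314 reads in vehicle and 414 and 389 in LY500307. These were 11.3 and 11.0 CPM against 11.9 and 12.0 CPM, a log2 fold change of 0.10 (SE 0.15, 95% interval -0.25 to 0.46) with an edgeR adjusted p of 0.788. Its direction turned with the correction for GC content, under which the log2 fold change was -0.01, and its exons share 1101 bases with a readthrough gene on the same strand that the tables do not list.

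Relative to its ferredoxins, FDXR took more reads in the treated samples. Ratios of reads within a sample do not depend on library size, and gene length is the same in each. There were 0.484 and 0.366 reads on FDXR per read on FDX1 in vehicle, and 0.595 and 0.608 in LY500307. Per read on FDX1L, FDXR had 4.43 and 3.50 reads in vehicle and 5.50 and 5.89 in LY500307. The ratio of FDX1 to FDX1L was 9.14 and 9.56 in vehicle and 9.24 and 9.69 in LY500307, so that these groups overlapped. The ratios were not tested, and such a ratio shows unequal change of a pair of genes and no more.

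The desulfurase complex makes the cluster on its scaffold. NFS1, the cysteine desulfurase that releases sulfur, had 1514 and 1576 reads in vehicle and 1862 and 1571 in LY500307, or 50.5 and 55.5 against 53.7 and 48.6 CPM. The NFS1 groups overlapped, with a log2 fold change of -0.05 (SE 0.12, 95% interval -0.32 to 0.22) and an edgeR adjusted p of 0.863. LYRM4, also called ISD11, which stabilises NFS1, had 751 and 744 reads in vehicle and 963 and 1050 in LY500307. In CPM, LYRM4 stood at 25.1 and 26.2 in vehicle and 27.7 and 32.5 in LY500307, which did not overlap, and its log2 fold change of 0.23 (SE 0.14, 95% interval -0.08 to 0.55) did not meet the criteria (edgeR adjusted p = 0.486).

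ISCU, the scaffold itself, split the treated pair. It had 2663 and 2669 reads in vehicle and 3838 and 2579 in LY500307, which were 88.9 and 93.9 CPM against 111 and 79.8 CPM. One treated sample was above both vehicle samples and the other was below both. The log2 fold change of ISCU was 0.06 with a 95% interval of -0.29 to 0.41 (edgeR adjusted p = 0.881). Against the vehicle mean, LY500307 replicate 1 stood at 0.28 and replicate 2 at -0.20 on the log2 scale, and without replicate 1 the log2 fold change was -0.19, from a fit in which the lone treated sample is assumed to vary like the vehicle pair.

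The carriers pass finished clusters on. GLRX5, the monothiol glutaredoxin that receives the cluster from the scaffold, had 1507 and 1342 reads in vehicle and 1896 and 1899 in LY500307, or 50.3 and 47.2 against 54.6 and 58.8 CPM. Its groups did not overlap, and its log2 fold change was 0.22 (SE 0.11, 95% interval -0.04 to 0.47) with an edgeR adjusted p of 0.446. ISCA1 and ISCA2 act together in building the larger clusters from the smaller ones. ISCA1 had 768 and 812 reads in vehicle and 919 and 756 in LY500307, that is 25.6 and 28.6 against 26.5 and 23.4 CPM, with a log2 fold change of -0.12 (SE 0.14, 95% interval -0.44 to 0.20, edgeR adjusted p = 0.71). ISCA2 had 531 and 556 reads in vehicle and 711 and 886 in LY500307, that is 17.7 and 19.6 against 20.5 and 27.4 CPM.

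The ISCA2 groups did not overlap, but its treated samples were far apart. Its log2 fold change was 0.36 (SE 0.17, 95% interval -0.03 to 0.76, edgeR adjusted p = 0.437). Against the vehicle mean, ISCA2 stood at 0.14 in LY500307 replicate 1 and at 0.56 in replicate 2. Without replicate 1 its log2 fold change was 0.56 and met the criteria, again with 1 treated sample assumed to vary like the vehicle pair. Reads on ISCA2 per read on its partner ISCA1 were 0.691 and 0.685 in vehicle and 0.774 and 1.17 in LY500307.

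Reads of other genes can affect some of these counts. On the opposite strand, NFS1 shares 84 exonic bases with ROMO1, ISCA2 shares 103 with NPC2, and GLRX5 shares 301 with SNHG10 and 127 with SCARNA13. These partners are in the tables. The strand setting and the handling of shared bases in counting were not given in the sources used here. Whether the members gained or lost reads there is not known. NFS1 also shares 289 exonic bases with a gene on its own strand that the tables do not list. Processed pseudogenes bear the names of FDX1 (2), ISCU (1), ISCA1 (5), ISCA2 (1) and GLRX5 (3), and none of them is in the tables. No overlapping gene and no pseudogene was found for FDXR in the annotation.

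Per length of the canonical transcript, in CPM divided by length in kilobases (RPKM), ISCU had the highest level of the 9 and ISCA2 the lowest, in both groups. In vehicle the order of mean levels was ISCU at 93.0 ± 3.64 RPKM (SD, n = 2 here and below), GLRX5 at 44.2 ± 1.96, FDX1 at 33.2 ± 0.560 and FDXR at 24.0 ± 4.32. NFS1 followed at 17.6 ± 1.16 RPKM and LYRM4 at 17.1 ± 0.529, which did not differ beyond their spread. ISCA1 at 13.8 ± 1.06, FDX1L at 11.0 ± 0.160 and ISCA2 at 7.22 ± 0.506 RPKM came last.

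FDXR and FDX1 overlapped in the treated samples on this scale, and not in vehicle. In vehicle FDXR stood at 27.1 and 20.9 RPKM, under FDX1 at 32.8 and 33.6 RPKM. In LY500307 FDXR stood at 35.5 and 38.4 RPKM and FDX1 at 35.0 and 37.1 RPKM, levels that overlapped. The order depends on the length used, since with all annotated exonic bases FDXR was at 12.3 RPKM in vehicle and 19.0 RPKM in LY500307, below FDX1 at 33.2 and 36.1 RPKM. By that length FDX1 was the highest of the 9 in both groups, with ISCU at 20.7 RPKM in vehicle and 21.5 in LY500307. ISCA2 stayed lowest in vehicle, whereas in LY500307 LYRM4 was lowest, at 7.62 RPKM against 7.92 for ISCA2.

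The wider pathway was described with 97 further genes, of which 90 were tested and 7 had 0 reads in all samples. Of these 90, 3 met the criteria upward (2.76% of all genes did so) and 0 downward (1.86% of all genes), and their median log2 fold change was 0.06. Both treated samples were above both vehicle samples in 30 of the 90 and below them in 13, where 3506 (24.2%) and 3530 of the 14473 genes tested showed these orders. The 3 genes were CIAPIN1, NUBP2 and HMOX1. The count depended on LY500307 replicate 2, since without it 0 of the 90 met the criteria, while without LY500307 replicate 1 there were 15.

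CIAPIN1 and NUBP2 belong to the cytosolic assembly list, in which 2 of 10 tested genes met the criteria upward, against 2.76% of all genes. CIAPIN1 passes electrons to early cytosolic assembly, with the reductase NDOR1 in a role akin to that of FDXR in mitochondria. CIAPIN1 had 1038 and 932 reads in vehicle and 1386 and 2127 in LY500307, and it rose by a log2 fold change of 0.65 (SE 0.21, edgeR adjusted p = 0.422). Without LY500307 replicate 2 the log2 fold change of CIAPIN1 was 0.25. NDOR1 itself had 1212 and 1079 reads in vehicle and 1200 and 1363 in LY500307, with a log2 fold change of -0.03. NUBP2, a subunit of the scaffold on which cytosolic clusters are made, had 690 and 719 reads in vehicle and 965 and 1337 in LY500307.

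NUBP2 met the criteria with a log2 fold change of 0.52 (SE 0.19, edgeR adjusted p = 0.422), just over the limit. Among other settings, it no longer met them with the GC correction (0.38), without vehicle replicate 1 (0.45) or without LY500307 replicate 2 (0.21). FAM96B, a part of the complex that targets clusters to cytosolic and nuclear clients, lay just under the limit at 0.49 (SE 0.19, edgeR adjusted p = 0.428), and it was 0.15 without LY500307 replicate 2 and 0.76, meeting the criteria, without replicate 1. The near-identical copies BOLA2 and BOLA2B were both listed at 0 reads.

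None of the 15 other genes of mitochondrial assembly met the criteria (4.62% of all genes did), and 2 had p under 0.05, a share near the 11.6% of all genes. These were NDUFAB1, the acyl carrier protein that binds the desulfurase complex, at 0.42 (SE 0.16, edgeR adjusted p = 0.422), and BOLA1, a mitochondrial BolA protein, at 0.47 (SE 0.19, edgeR adjusted p = 0.428). Without LY500307 replicate 2 they were 0.16 and 0.30, and without replicate 1 they were 0.65 and 0.63 and met the criteria. The next by p was SLC25A37, also called mitoferrin, which imports iron into mitochondria, at -0.22 (edgeR adjusted p = 0.432). The chaperones that release the cluster from ISCU were HSPA9 at -0.13 (edgeR adjusted p = 0.6) and its co-chaperone HSCB at 0.23 (edgeR adjusted p = 0.63).

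Among 35 client proteins that carry iron-sulfur clusters, 0 met the criteria in either direction, and 1 in each direction had p under 0.05, against 4.62% and 11.6% of all genes in either direction. BRIP1, a DNA repair helicase, had 1702 and 1518 reads in vehicle and 1612 and 1277 in LY500307, with a log2 fold change of -0.36 (SE 0.12, edgeR adjusted p = 0.422). DPH2, of diphthamide synthesis, stood at 0.40 (SE 0.16, edgeR adjusted p = 0.428), and DDX11, another helicase, at -0.28 (edgeR adjusted p = 0.431). DPH2 was 0.20 without LY500307 replicate 2 and 0.59, meeting the criteria, without replicate 1. The median over the 35 was 0.06.

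The enzymes that draw electrons from mitochondrial ferredoxin included few with many reads in these cells. The steroid-making CYP11A1, CYP11B1 and CYP11B2 had 0 reads in all 4 samples, where a count of 0 allows up to 3 reads, or 0.0864 to 0.106 CPM depending on the sample, by counting error alone. CYP27A1 had 5 to 12 reads and CYP24A1 32 to 53. COX15, which makes heme A, was the most read of the 9 listed, with 1853 and 1592 reads in vehicle and 2081 and 2408 in LY500307 (log2 fold change 0.19, edgeR adjusted p = 0.545). COQ6, of coenzyme Q synthesis, stood at 0.15 and CYP27C1 at -0.14, neither with p under 0.05. Of the 6 tested, 0 met the criteria, and the median log2 fold change was -0.12.

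Heme synthesis, whose last step also needs iron in mitochondria, had 0 of 7 tested genes that met the criteria and a median log2 fold change of 0.22. The 3 with the smallest p were UROS at 0.24 (edgeR adjusted p = 0.432), UROD at 0.22 (edgeR adjusted p = 0.472) and ALAS1, the first enzyme of the path, at 0.18 (edgeR adjusted p = 0.472). In these 3 the treated samples were above the vehicle samples, an order that 24.2% of all genes showed, and in 1 gene of the list, ALAD, they were below (log2 fold change -0.18).

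In the iron handling list, 1 of 17 tested genes met the criteria, a share near the 4.62% of all genes. HMOX1, the heme oxygenase that frees iron from heme and responds to oxidative stress, had 1040 and 963 reads in vehicle and 1560 and 1985 in LY500307, and it rose by a log2 fold change of 0.63 (SE 0.16, edgeR adjusted p = 0.422). Without LY500307 replicate 2 the value for HMOX1 was 0.39, below the limit of 0.5. FTL, the ferritin light chain, had 13116 and 12033 reads in vehicle and 18012 and 20370 in LY500307, a log2 fold change of 0.42 (SE 0.12, edgeR adjusted p = 0.422) that lay under the fold limit. FTH1, the ferritin heavy chain, had 8756 and 8789 reads in vehicle and 12314 and 6075 in LY500307, so its treated samples stood on both sides of the vehicle pair, as those of ISCU did, and its log2 fold change was -0.15 (SE 0.25, edgeR adjusted p = 0.809). TFRC, the transferrin receptor, and NCOA4, which sends ferritin to breakdown, had log2 fold changes of 0.11 and 0.18, with edgeR adjusted p of 0.688 and 0.502.

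**Figure D4:**
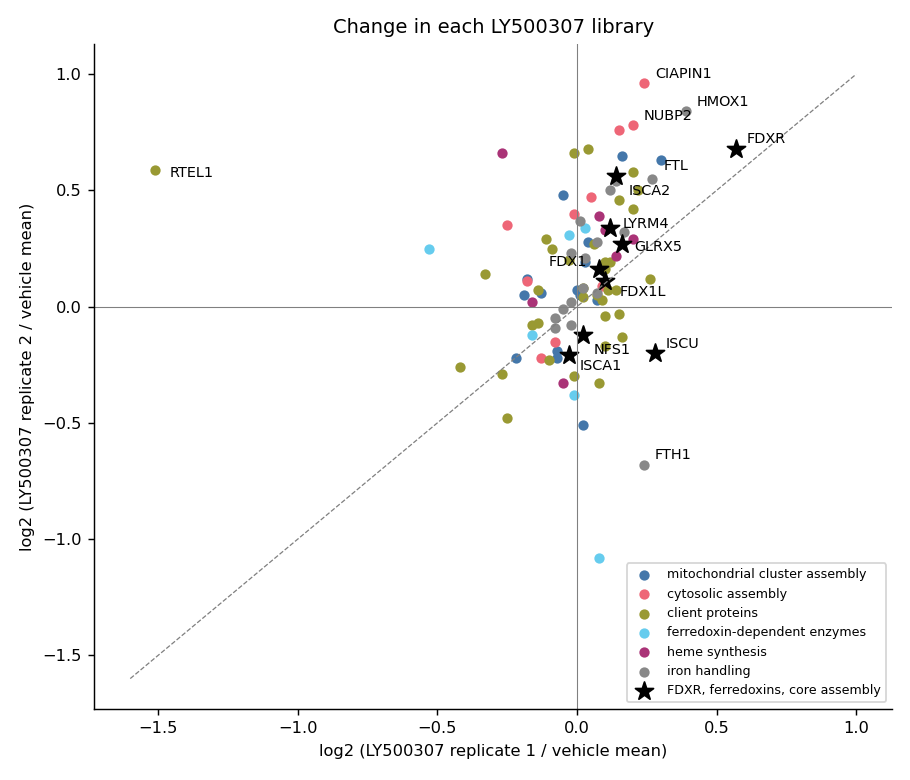
Each gene of the 9 (stars) and of the 90 further tested genes (circles, coloured by list), with the log2 ratio of LY500307 replicate 1 to the vehicle mean on the x axis and that of replicate 2 on the y axis; the dashed line is equality. FDXR lies near the line at 0.57 and 0.68, CIAPIN1 lies well above it at 0.24 and 0.96, and ISCU (0.28 and -0.20) and FTH1 (0.24 and -0.68) have opposite signs.

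FDXR had similar log2 ratios in both treated samples, with 0.57 in LY500307 replicate 1 and 0.68 in replicate 2 over the vehicle mean. The corresponding values were 0.24 and 0.96 for CIAPIN1, 0.20 and 0.78 for NUBP2, and 0.39 and 0.84 for HMOX1. RTEL1, which lies apart in the plot of change per library and is named after its values were seen, had only 31, 22, 11 and 44 reads.

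The estrogen receptors and 2 further transcription factors were read in the same libraries as context. ESR2, which encodes ERβ, had 7 and 8 reads in vehicle and 12 and 7 in LY500307, too few for the edgeR test. By other measures, the study reported ERβ transcripts by RT-qPCR in SKOV3 spheroids and ERβ protein by staining in SKOV3 ALDH+ cells. It also reported that LY500307 raised the activity of an estrogen response element reporter in SKOV3 spheroids. ESR1, the other nuclear estrogen receptor, was listed at 0 reads in all 4 samples. Whether the annotation used for counting could assign reads to genes listed at exactly 0, such as ESR1 and PAX8, was not tested. TP73 had 47 and 32 reads in vehicle and 67 and 77 in LY500307 (log2 fold change 0.67, SE 0.34, edgeR adjusted p = 0.445), and TP63 had 22 to 34 reads.

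The 5 genes whose profile over the 4 samples was nearest to that of FDXR, by Euclidean distance of centred log2 CPM, were RDH14 (0.0361), PRSS23 (0.0456), DCST2 (0.0727), PADI2 (0.0824) and PEMT (0.0834). Each shared the lower second vehicle sample, for example PRSS23 at 8.44 and 6.61 CPM in vehicle and 10.8 and 11.9 CPM in LY500307, and PEMT at 11.8 and 9.78 against 15.6 and 16.7 CPM. With 4 points a close match is a description and nothing more.

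**Figure D5:**
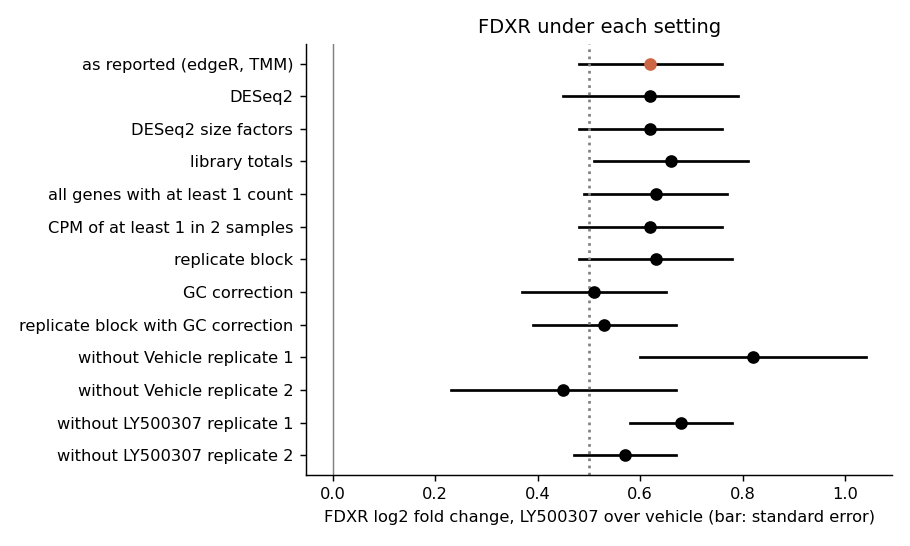
The log2 fold change of FDXR (x axis, with its standard error as a bar) under the reported fit and each alternative, with a dotted line at the limit of 0.5. The values run from 0.45 without vehicle replicate 2 to 0.82 without vehicle replicate 1, and the former is the only one below 0.5.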

How the data were processed

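SKOV3-ALDH+ OCSCs (2 vehicle, 2 LY500307) were profiled by RNA-seq. The authors aligned reads to hg19 (TopHat2 2.0.8b in the submitters' processing notes) and deposited raw read counts per gene symbol from HTSeq; the annotation used was not given in the sources used here. Reads outside genes (25.5% to 30.8%) stayed out of library sizes. Gene tests used edgeR 4.0.16 under R 4.3.3 (TMM scaling, filterByExpr, quasi-likelihood test, Benjamini-Hochberg over all genes tested). The test fits each gene with the same spread in both groups. The simulated data used to check it also had equal spread, unlike these samples, so the check does not cover that difference. Standard errors are the absolute log2 fold change over the square root of F. DESeq2 1.42.0, other scalings and filters, a replicate block, GC correction (loess span 0.3, prior count 2) and leaving out each sample were alternatives. GRCh37 annotation (GENCODE) matched 91.4% of 23228 symbols, 2181 by an older symbol. RefSeq promoters were found for all 9 members. Intervals on a count of 0 cover counting error only.

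Members, lists and tests were chosen with earlier results of these data known. Named were all members, and in each pathway list the genes that met the criteria, the 3 of smallest p and defining genes (HSPA9, HSCB, TFRC, FTH1, FTL), with TP63, TP73, ESR1, ESR2 and the 5 nearest profiles. NDOR1, BOLA2, BOLA2B, RTEL1 and the other cytochromes P450 fall outside this rule or were added after their values were seen. Not every gene that the rule names, nor every motif searched, is reported here.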

Additional observations from a re-analysis of the deposited data

How the results depend on the processing

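FDX1, LYRM4, ISCA1 and GLRX5 kept their direction and stayed outside the criteria under all 12 alternatives. FDXR met the criteria under 11 of 12, and with 1 sample left out its log2 fold change ranged from 0.45 (without vehicle replicate 2, outside the criteria) to 0.82. With 1 sample left out, the members that met the criteria ranged from 0 (without vehicle replicate 2) to 2 (without LY500307 replicate 1, adding ISCA2), the other pathway genes from 0 to 15, against 3 as reported, and all genes from 352 to 1987, against 669, with the lower value in both cases when LY500307 replicate 2 was left out and the higher when replicate 1 was. Genes with an adjusted p under 0.05 numbered 0 as reported, 16 with DESeq2, 1 with the replicate block, and 590 and 5002 without LY500307 replicates 2 and 1. Scaling by library totals alone gave 5 other pathway genes. In the fits with a sample left out, a lone sample is assumed to vary like the other group. The direction of FDX1L turned with the GC correction (-0.01) and with the replicate block and GC correction (-0.01). Leaving out 1 sample turned the direction of genes near 0, with ranges of -0.19 to 0.28 for ISCU, -0.12 to 0.02 for NFS1, -0.03 to 0.31 for COQ6, -0.05 to 0.48 for HSCB, -0.02 to 0.23 for TFRC, -0.68 to 0.24 for FTH1 and -0.39 to 0.18 for TP63. Same-numbered replicates did not deviate together over all genes (correlation -0.0701). The labels give no pairing beyond the replicate number, and this correlation cannot decide whether the replicates were handled as pairs. The replicate block gave 717 genes, 2 other pathway genes and 0.63 for FDXR. NUBP2 was at 0.49 with the block and at 0.36 with the GC correction added, outside the criteria in both. The causes were not tested.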
